A study of Mus musculus with 10 samples.

Results

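The comparison asked what BMP4 added to TNFa did to open chromatin in osteoblasts, set against TNFa alone. The assay was ATAC-seq, a sequencing readout of where a transposase can cut into DNA and hence of how open the chromatin is, and the cells were MC3T3-E1, a mouse calvarial preosteoblast line. The cells given both factors received TNFa at 10 ng/ml and BMP4 at 10 ng/ml, the cells of the other group TNFa at 10 ng/ml without BMP4, and each group had 2 libraries. Cells given BMP4 alone and untreated cells, with 2 libraries each, served only as a second look at the same windows, and 2 libraries of sonicated DNA from the line were the authors' background. All cells were first kept in medium with 2.5% serum. The labels give no genetic change in any group. How long TNFa was present is not certain: the protocol puts it in 30 min before a BMP4 treatment of 3 h, and the labels of the samples say 3 h for both factors. Only the titles of the TNFa libraries bear the word p65, which no label explains, so every difference from that group assumes that those libraries were made like the others. The batch label is 1 for all libraries, and nothing says that replicates were separate cultures. P-values therefore reflect the spread among these libraries, possibly a technical one.

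The authors' lists hold 23745 windows of 125 bp for TNFa+BMP4 and 23288 for TNFa, of 97788 windows summed over the series' 4 lists. A window of one list was paired with its nearest window in the other where both were each other's nearest and their starts lay within 62 bp. This gave 18833 pairs, 79.31% of the TNFa+BMP4 list and 80.87% of the TNFa list. Of the pairs, 6992 had identical starts, and the median shift was 2 bp. The tests covered 17909 pairs, and the other 924 were too low to test. Values below are normalised tags, that is, sequenced tags per 125-bp window put on 1 scale over the 4 libraries. A log2 fold change is TNFa+BMP4 over TNFa, so a positive one means more open with BMP4 added, and SE is its standard error.

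BMP4 binds type I and type II serine/threonine kinase receptors, which phosphorylate SMAD1, SMAD5 and SMAD9. These enter the nucleus with SMAD4 and bind short DNA elements, among them the CAGAC box and GC-rich elements such as GGCGCC and its variant form GGAGCC. The Id genes, whose proteins lack a DNA-binding region and hold helix-loop-helix transcription factors inactive, are the best known early targets, and Smad6 and Smad7 encode inhibitors that act back on the pathway. TNFa acts through NF-kB, of which p65 is a subunit, on inflammatory and survival genes, and can also start cell death. In osteoblasts BMP signalling supports the lineage factors Runx2 and Sp7, whereas TNFa is known to oppose differentiation.

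The promoter windows below are shown because the Id3 and Snai1 promoters were among the windows with the smallest p on the higher side, the Zzz3 promoter was among those on the lower side, and the Id2 promoter overlapped between groups although a window upstream of it did not. Sequences are from RefSeq promoters of GRCm38.p6 (mm10), 5′ to 3′ on the gene's strand, and capitals mark these 3 motifs read on either strand. The windows lie at chr4:136143647-136143771 for Id3 (plus strand), chr2:167538058-167538182 for Snai1 (plus strand), chr12:25096129-25096253 for Id2 (minus strand) and chr3:152396549-152396673 for Zzz3 (plus strand).
Id3: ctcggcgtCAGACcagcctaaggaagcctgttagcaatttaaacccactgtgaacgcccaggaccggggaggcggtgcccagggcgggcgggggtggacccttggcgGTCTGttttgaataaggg
Snai1: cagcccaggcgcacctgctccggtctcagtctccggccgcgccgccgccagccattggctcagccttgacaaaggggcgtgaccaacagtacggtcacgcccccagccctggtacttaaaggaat
Id2: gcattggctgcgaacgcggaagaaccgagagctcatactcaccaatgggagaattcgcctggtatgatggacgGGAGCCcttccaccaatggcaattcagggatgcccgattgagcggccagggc
Zzz3: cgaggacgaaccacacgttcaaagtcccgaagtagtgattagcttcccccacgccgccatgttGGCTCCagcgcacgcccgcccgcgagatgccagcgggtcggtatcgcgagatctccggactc
The Id3 window held 2 matches of CAGAC, the Id2 and Zzz3 windows 1 match of GGAGCC each, and the Snai1 window none of the 3 motifs. Of the 7055 tested promoter windows, 3570 lay inside a RefSeq promoter. Among those, 20.4% held the motif CAGAC on either strand, 12.5% held the motif GGCGCC, 23.9% held the variant form GGAGCC, and 2.1% the AP-1 element TGANTCA. In the 237 such windows that were higher without overlap the shares were 21.5%, 13.1%, 22.4% and 1.27%. In the 213 that were lower without overlap they were 18.8%, 7.51%, 24.9% and 1.88%. Matches of these letters are a description of the windows and not binding sites.

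The libraries did not group by treatment. Across the tested windows, the correlation of log2 tags was 0.717 between the TNFa+BMP4 libraries and 0.633 between the TNFa libraries. It was 0.887 between the first library of each group and 0.835 between the second ones, so libraries of the same number were more alike than libraries of the same treatment. The number was not the whole pattern: libraries that shared neither had 0.824 (second TNFa+BMP4 with first TNFa) and 0.504 (first TNFa+BMP4 with second TNFa). Total tags were 21.76 M and 18.84 M in the TNFa+BMP4 libraries and 16.49 M and 19.74 M in the TNFa libraries. Of these, 4.81% and 5.97% with TNFa+BMP4 and 4.87% and 5.60% with TNFa fell inside the group's own list, and 0.395% and 0.36% of the background libraries' tags fell inside the TNFa+BMP4 list. The median tested window held 30 and 36 tags with TNFa+BMP4 and 24 and 34 with TNFa, and the median SE of a log2 fold change was 0.57.

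With BMP4 added, the windows with the smallest p on the higher side had log2 fold changes of 1.60 to 2.45. They included the Id3 and Snai1 promoters, a window in Sox6 and intergenic windows whose nearest genes were uncharacterised transcripts such as A730020M07Rik. Those on the lower side included the Zzz3, Rab40c and Tbce promoters. No window passed an adjusted p of 0.05 in limma with Benjamini-Hochberg adjustment (0 of 17909, percent called 0), and the lowest adjusted p was 1. At an unadjusted limma p under 0.05, 56 windows were higher (0.313%) and 25 lower (0.14%), and limma with voom-type weights gave 0 windows past the adjusted threshold and 84 at the unadjusted one. With the replicate number as a block, which the labels do not say pairs the libraries, 982 were higher and 597 lower at an unadjusted p under 0.05, and again 0 passed the adjusted threshold. With libraries scaled by their total tags, the split was 82 higher and 8 lower. Leaving out 1 library at a time changed these counts: without the first TNFa library, 27 windows passed the adjusted threshold, all higher, and 1518 the unadjusted one. The unadjusted count was 20 without the first TNFa+BMP4 library, 670 without the second and 57 without the second TNFa library. Both TNFa+BMP4 libraries lay above both TNFa libraries in 1540 windows (8.6%) and below both in 1577 (8.81%). The median log2 fold change was 0.00, with the 5th and 95th percentiles at -0.72 and 0.83, and 50.4% of windows were above 0.

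**Figure D1:**
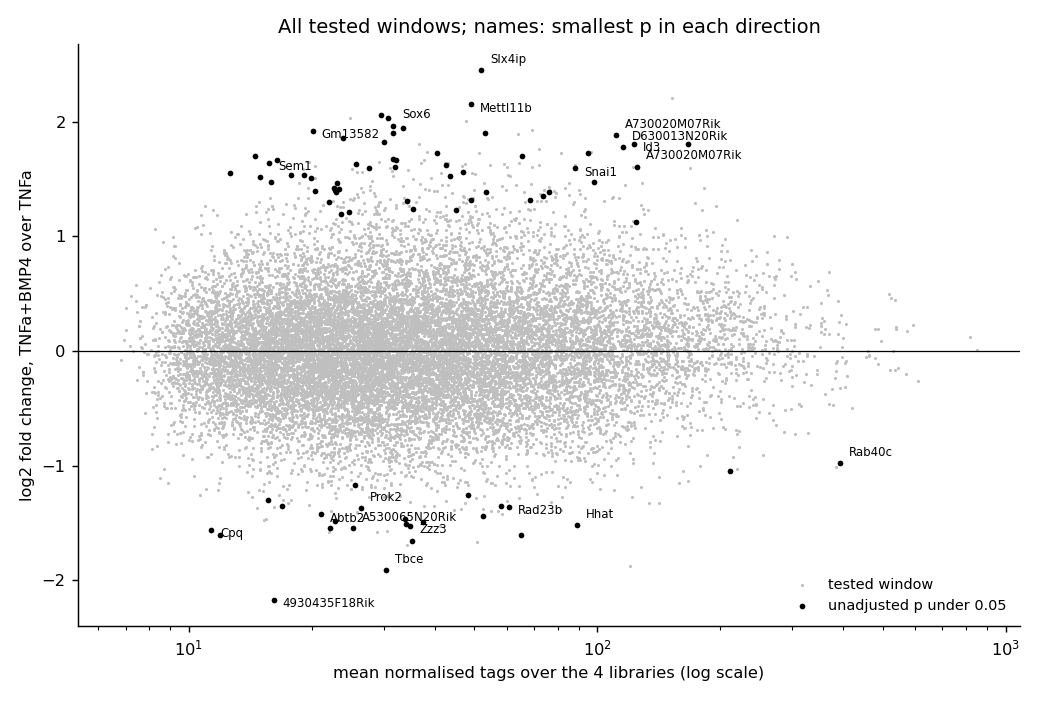
Log2 fold change of TNFa+BMP4 over TNFa (vertical) against the mean of normalised tags over the 4 libraries (horizontal, log scale) for the 17909 tested windows, with the windows at an unadjusted p under 0.05 in black and the 10 with the smallest p in each direction named by nearest gene. The cloud is centred on 0, with Id3, Snai1 and an A730020M07Rik pair among the higher windows of high level and Rab40c alone at the highest level on the lower side.

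The Id3 promoter window held 210 and 174 normalised tags in the TNFa+BMP4 libraries, against 42.2 and 66.7 in the TNFa libraries. The groups did not overlap, and the lower TNFa+BMP4 library stood well above the higher TNFa library. Its mean was 192 ± 24.8 with TNFa+BMP4 and 54.5 ± 17.4 with TNFa (SD, n = 2 each), a log2 fold change of 1.81 with an SE of 0.52 and a 95% interval of 0.63 to 2.99. Leaving out 1 library at a time gave 1.51 to 2.12. A pair of windows upstream of Id3, in the intergenic region before the gene, stood out in the same way. The window at -8650 bp held 112 and 53.9 normalised tags with TNFa+BMP4, against 35.8 and 10.1 with TNFa (log2 fold change 1.90, SE 0.70). The window at -9068 bp held 69.1 and 29.9 with TNFa+BMP4, against 17.9 and 9.14 with TNFa (1.68, SE 0.61). At both upstream windows the first library exceeded the second within each group, which was not so at the promoter. The other 3 windows assigned to Id3, at -3316, -20291 and -26532 bp, overlapped between groups, with log2 fold changes of 0.63, -0.32 and 0.06.

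The other Id genes differed among themselves. At Id2, the intergenic window at -2833 bp held 53.4 and 75.3 normalised tags with TNFa+BMP4, against 24.3 and 27.4 with TNFa (log2 fold change 1.23, SE 0.53). These groups were well apart, whereas the Id2 promoter window, with 35.6 and 38.5 against 19.2 and 44.8, had the lowest and the highest value both in TNFa libraries. At Id1, the promoter window held 27.2 and 62.4 with TNFa+BMP4, against 12.8 and 26.5 with TNFa (1.08, SE 0.62), so that the groups only just failed to touch. The Id1 windows at -9376 and -9050 bp also lay higher in both TNFa+BMP4 libraries, with log2 fold changes of 1.01 (SE 0.59) and 0.88 (SE 0.54). The Id4 promoter window was the more open in the TNFa group on average, with 23.1 and 53.0 with TNFa+BMP4 and 47.3 and 89.6 with TNFa, and the groups overlapped (-0.86, SE 0.62). Of the 14 tested windows of Id1, Id2, Id3 and Id4, a grouping made after the values were seen, 8 were higher without overlap, none was lower without overlap, and 12 had a fold change above 0, where all tested windows had 8.6%, 8.81% and 50.4%. In the other 74 windows of the BMP target list, 7 were higher and 6 lower without overlap, and 34 were above 0.

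**Figure D2:**
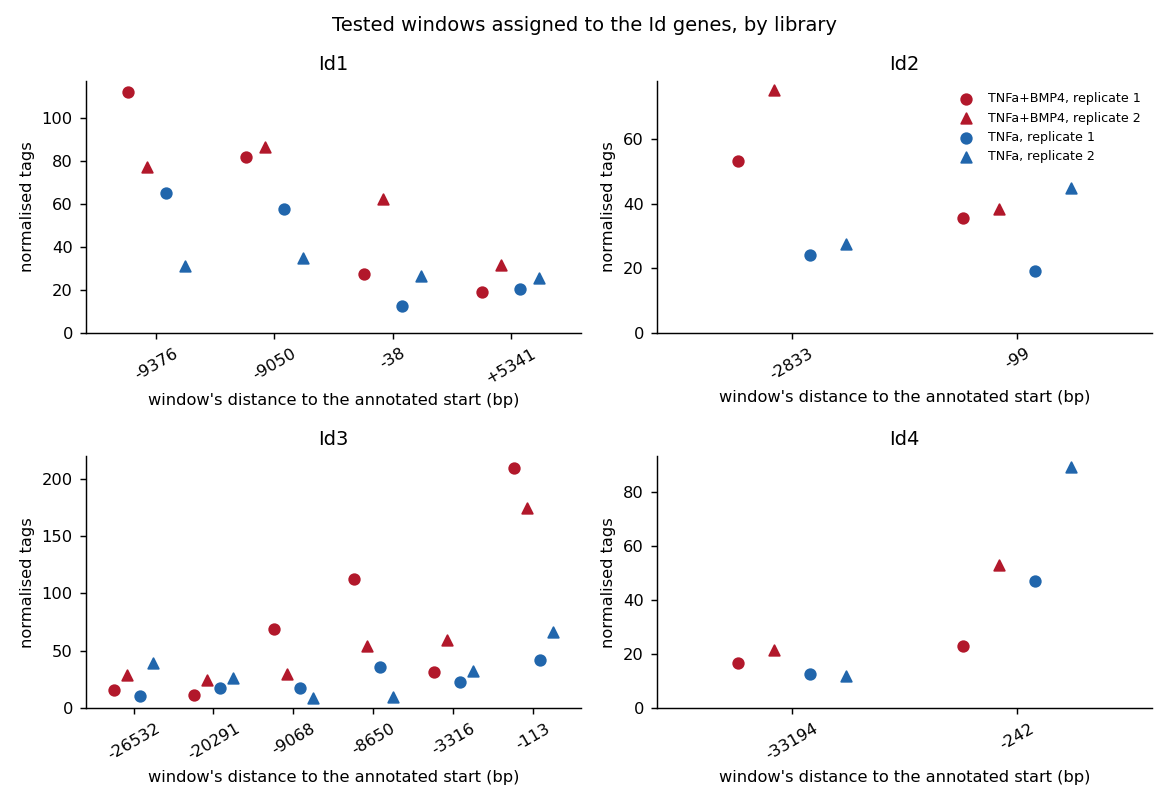
Normalised tags (vertical) in each of the 4 libraries for every tested window assigned to Id1, Id2, Id3 and Id4, placed in order of distance to the annotated start in bp (not to scale; red TNFa+BMP4, blue TNFa; circles replicate 1, triangles replicate 2). Red points stand above blue ones at the Id3 promoter, at the -9068 and -8650 bp windows, at Id2 -2833 bp and at 3 of the 4 Id1 windows, while the Id4 promoter has its highest value in a TNFa library.

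Among the feedback inhibitors, the Smad6 promoter window at the start site held 51.3 and 39.3 normalised tags with TNFa+BMP4, against 20.5 and 29.3 with TNFa (log2 fold change 0.83, SE 0.53). A distal window assigned to Smad6 at +94154 bp held 66.0 and 45.3, against 32 and 22.9 (0.97, SE 0.54). Both were free of overlap, whereas a further Smad6 promoter window at -940 bp held 15.7 and 62.4 with TNFa+BMP4 and 52.4 and 28.3 with TNFa. None of the 5 Smad7 windows separated the groups, and their log2 fold changes ran from -0.39 to 0.31. Atoh8, which encodes a helix-loop-helix factor induced by BMP, had 3 windows, all above 0 at 0.67 to 0.97. Hes1, better known as a Notch target, had 4 windows between -0.25 and 0.30, and the Dlx5 promoter, at a homeobox gene of bone formation, was at 0.12. Over the whole list of BMP and SMAD targets, 88 windows at 26 of 40 genes were tested. Of these windows 15 (17.1%) were higher and 6 (6.82%) lower without overlap, against 8.6% and 8.81% of all tested windows. A fold change above 0 was found in 46, against 50.4% of all tested windows. The median was 0.06, against 0.00 for all windows, but 0.12 without the second TNFa+BMP4 library, -0.0049 without the second TNFa library and -0.015 in the fit over all 8 libraries. Smad9, Hey1, Bambi, Msx2 and Grem1 were on the list but had no tested window.

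Upstream in the pathway, among ligands, antagonists and receptors, fold changes lay on both sides of 0. The receptors and SMAD proteins had 29 tested windows at 12 of 19 genes. Of these, 11 were above 0, 1 (3.45%) was higher and 1 (3.45%) lower without overlap, against 50.4%, 8.6% and 8.81% of all tested windows. Their median was -0.15, and it ran from -0.33 without the first TNFa library to -0.055 without the first TNFa+BMP4 library. The lowest were an intronic window of Smad3, the TGF-beta effector, with 13.6 and 29.1 normalised tags with TNFa+BMP4 and 26.9 and 101 with TNFa (-1.30, SE 0.71), and one of Tgfbr2, a TGF-beta receptor (-1.0, SE 0.68). The BMP ligands and antagonists had 37 windows at 14 of 25 genes, with 6 (16.2%) higher and 7 (18.9%) lower without overlap, against the same 8.6% and 8.81%. Their median was 0.01, with a range of -0.054 to 0.16 when 1 library was left out. Among them, a window at +11582 bp of Fst, which encodes the ligand trap follistatin, held 22 and 44.5 with TNFa+BMP4, against 51.1 and 96.9 with TNFa (-1.12, SE 0.61). A window at -77884 bp of Tob1, an antiproliferative inhibitor of BMP signalling, held 14.7 and 33.4, against 43.5 and 86.9 (-1.39, SE 0.62), whereas a Tob1 window at -51772 bp had a fold change of 0.87 (SE 0.72) with overlap. Chrdl1, which encodes a chordin-like antagonist, had an intronic window with 50.3 and 64.1 with TNFa+BMP4, against 84.4 and 186 with TNFa (-1.11, SE 0.58). Bmp4 itself had 3 windows. The intron window at +3777 bp was higher without overlap, with 39.8 and 22.2 with TNFa+BMP4, against 17.9 and 16.5 with TNFa (0.73, SE 0.53), while the intron window at +3241 bp stood at 0.01 (SE 0.53) and the intergenic one at -45991 bp at -0.54 (SE 0.65), both with overlap.

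**Figure D3:**
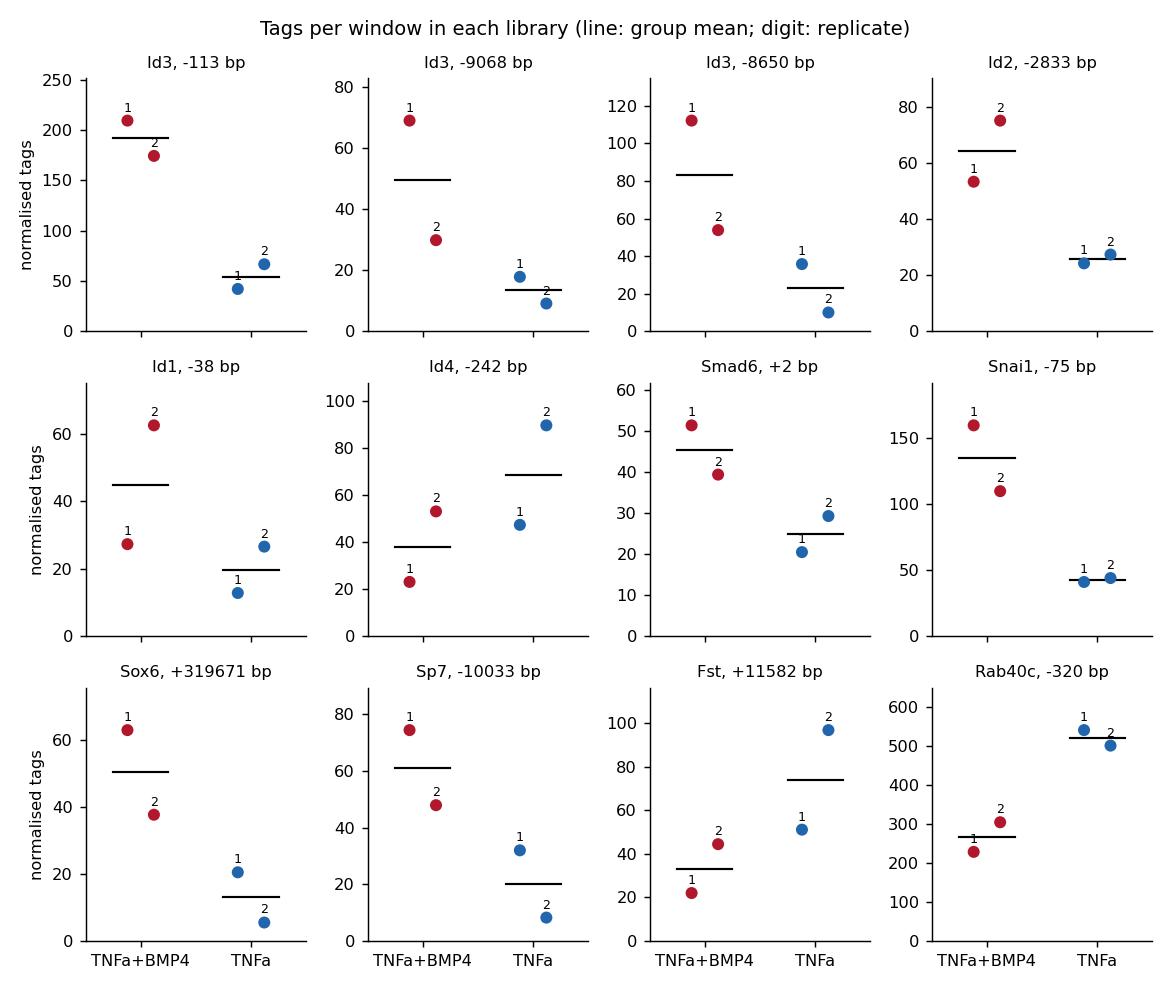
Normalised tags (vertical, from 0) in each library for 12 named windows, with TNFa+BMP4 on the left and TNFa on the right, the replicate number at each point and a line at the group mean; titles give the nearest gene and the distance to its start. The groups are apart at the Id3, Id2, Snai1, Smad6, Sox6, Sp7 and Rab40c windows shown and overlap at the Id4 promoter.

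Several windows with the smallest p lay outside the classical BMP targets. The promoter window of Snai1, a zinc-finger repressor known from epithelial-mesenchymal transition, held 159 and 110 normalised tags with TNFa+BMP4, against 40.9 and 43.9 with TNFa (log2 fold change 1.60, SE 0.53). The TNFa libraries were nearly equal there and both TNFa+BMP4 libraries far above them. A pair of adjacent intergenic windows, 401 bp apart, lay nearest to A730020M07Rik, at +39183 and +38782 bp of its start. The first held 221 and 132 with TNFa+BMP4 against 57.5 and 34.7 with TNFa, and the second 228 and 152 against 65.2 and 54.9. An intergenic window assigned to D630013N20Rik, at -143503 bp of its start, held 229 and 133, against 48.6 and 50.3 (1.78, SE 0.53). The smallest p belonged to a window 124173 bp downstream of the start of Mettl11b, a protein N-terminal methyltransferase gene, with 112 and 51.3 against 21.7 and 11 (2.15, SE 0.61). The Slx4ip promoter had the largest fold change of the 10, 2.45 with an SE of 0.83, but rested mainly on the first TNFa+BMP4 library, with 151 and 30.8 with TNFa+BMP4 and 20.5 and 5.48 with TNFa. Windows assigned to Gm13582 (1.92, SE 0.59) and Sem1, a small proteasome subunit gene (1.64, SE 0.56), were low, with at most 10.2 normalised tags in a TNFa library.

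On the lower side, the promoter window of Rab40c, a Rab-family GTPase gene, was the most open of those named, with 228 and 304 normalised tags with TNFa+BMP4, against 541 and 501 with TNFa. The groups were far apart, and the log2 fold change was -0.98 with an SE of 0.36. The promoter window of Zzz3, a subunit gene of the ATAC acetyltransferase complex, held 15.7 and 16.3, against 33.2 and 74.1 (-1.53, SE 0.57). That of Tbce, a tubulin-folding cofactor gene, held 4.19 and 24.8, against 43.5 and 49.4 (-1.91, SE 0.72). A window upstream of Rad23b, a nucleotide excision repair gene, held 33.5 and 32.5, against 97.2 and 79.5 (-1.36, SE 0.52), and one upstream of Hhat, the hedgehog acyltransferase gene, 43.0 and 42.8, against 86.9 and 184 (-1.52, SE 0.57). The others of the 10, assigned to 4930435F18Rik, Abtb2, Prok2, Cpq and A530065N20Rik, had between 2.1 and 19.7 normalised tags with TNFa+BMP4 and between 14.1 and 44.8 with TNFa.

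For osteoblast genes, the values were near those of all windows, with Sp7 above and several others below. Of 71 windows at 23 of 27 genes, 8 (11.3%) were higher and 5 (7.04%) lower without overlap, against 8.6% and 8.81% of all tested windows. The median was 0.01, and -0.069 to 0.12 when 1 library was left out. Sp7 encodes osterix, a transcription factor that bone formation requires. Its window at -10033 bp held 74.4 and 47.9 normalised tags with TNFa+BMP4, against 32 and 8.23 with TNFa (1.73, SE 0.67), and the neighbour at -10381 bp had a fold change of 1.12 (SE 0.72) with overlap. The promoter of Runx2, the master factor of the lineage, held 47.1 and 92.4 with TNFa+BMP4, against 90.8 and 97.8 with TNFa (-0.50, SE 0.56). An intronic Runx2 window (-1.20, SE 0.69) and one in Vdr, the vitamin D receptor gene (-1.14, SE 0.61), lay lower. These lineage genes had open windows in both groups, while Alpl and Bglap, markers of later osteoblasts, had no tested window.

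At TNFa-linked genes, values with BMP4 added lay on both sides of those with TNFa alone. Of 89 windows of NF-kB targets, 38 were above 0, 4 (4.49%) were higher and 12 (13.5%) lower without overlap, against 50.4%, 8.6% and 8.81% of all tested windows. The median was -0.10, but 0.090 without the second TNFa+BMP4 library. The lower ones included the promoter of Nfkb2, which encodes the NF-kB precursor p100, with 122 and 133 normalised tags with TNFa+BMP4 and 191 and 300 with TNFa (-0.90, SE 0.47). The Nfkbia promoter, at the gene of the NF-kB inhibitor IkB-alpha, held 114 and 70.1 with TNFa+BMP4 and 95.9 and 203 with TNFa, with overlap. The promoters of Tnfaip3, the gene of the NF-kB-restraining enzyme A20, and of the chemokine gene Ccl2 stood at -0.61 (SE 0.58) and -0.57 (SE 0.59), both with overlap. An intronic window of the TNF receptor adaptor Traf1 was higher without overlap, with 53.4 and 20.5, against 17.9 and 13.7 (1.00, SE 0.60). AP-1 and immediate early genes had 108 windows, of which 47 were above 0, against 50.4% of all tested windows. Of the 108, 4 (3.70%) were higher and 10 (9.26%) lower without overlap, against 8.6% and 8.81% of all tested windows. Their median was -0.06, but 0.033 without the first TNFa library and -0.13 without the second. Junb, an AP-1 gene counted here in the list of BMP and SMAD targets and not in this one, stood at 0.38 (SE 0.48) in its most open tested window.

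The question of cell survival named in the series' title bears on a pair of lists. Genes that hold back cell death had 40 windows at 17 of 19 genes, of which 23 were above 0, against 50.4% of all tested windows. Of the 40, 4 (10%) were higher and 3 (7.5%) lower without overlap, near the 8.6% and 8.81% of all tested windows. Their median was 0.05, which ran from -0.14 to 0.15 when 1 library was left out. A promoter window of Cflar, which encodes the caspase-8 inhibitor c-FLIP, held 66.0 and 48.7 normalised tags with TNFa+BMP4, against 47.3 and 19.2 with TNFa (0.86, SE 0.60), so that the groups nearly met. Mcl1, a BCL2-family survival gene, was at 0.04 (SE 0.37) in its most open window, at -8043 bp, and the Gadd45b promoter at -0.16 (SE 0.50). Genes that carry out cell death had 42 windows at 16 of 28 genes, of which 12 were above 0, none was higher and 7 (16.7%) were lower without overlap, where all tested windows had 50.4%, 8.6% and 8.81%. The median was -0.14 (-0.13 without the first TNFa+BMP4 library, -0.33 without the second, -0.28 without the first TNFa library and -0.22 without the second). It was -0.09 for windows with a mean of at least 50 tags. Of the windows lower without overlap, 3 were of Dapk1, which also held the list's highest value (0.86), and 2 of Bid. All 5 windows of Bbc3 were above 0. Among the lowest were intronic windows of Fadd, the death receptor adaptor (-0.74, SE 0.63), and Bid, a pro-apoptotic BCL2-family gene (-0.74, SE 0.59). All of these lie within the 5th and 95th percentiles of all windows or just outside them.

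YAP and TEAD targets had 60 windows with 6 (10%) higher and 7 (11.7%) lower without overlap, near the 8.6% and 8.81% of all tested windows. Their median was -0.11, but -0.25 without the first TNFa library, -0.021 without the first TNFa+BMP4 library and 0.027 without the second. The matricellular genes Ccn1 and Ccn2 were among the higher ones. The Ccn1 window at -35296 bp held 157 and 186 normalised tags with TNFa+BMP4, against 74.2 and 80.5 with TNFa (1.13, SE 0.49). Ccn2, which encodes CTGF, had a window at -5974 bp with 168 and 52.2, against 56.3 and 23.8, with overlap (1.31, SE 0.71). Its neighbour at -5556 bp, the highest of the list, held 91.1 and 31.6, against 40.9 and 5.49, also with overlap (1.64, SE 0.87). Lower without overlap were 2 intronic windows of Axl (-0.66, SE 0.43, and -0.61, SE 0.53). The Ankrd1 promoter stood at -0.93 (SE 0.74) with overlap.

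Markers of other lineages were few and differed in direction. Chondrocyte markers had 14 windows at 6 of 16 genes, 10 of them above 0, 4 (28.6%) higher and none lower without overlap, with a median of 0.53, where 50.4%, 8.6% and 8.81% of all tested windows were above 0, higher and lower. Without the second TNFa library the median was 0.23, and without the first TNFa+BMP4 library 0.30. The highest lay far inside Sox6 and in Sox5, genes of SOX factors that act with Sox9 in cartilage. The Sox6 window held 62.9 and 37.6 normalised tags with TNFa+BMP4, against 20.5 and 5.48 with TNFa (1.97, SE 0.65), and the Sox5 window at +43287 bp 44.0 and 24.8, against 11.5 and 11 (1.41, SE 0.54). The Sox9 promoter stood at 0.08 (SE 0.53). Of the cartilage matrix genes, Comp (-0.625, SE 0.66) and Col9a3 (-0.18, SE 0.55) lay below 0 with overlap. Col2a1 had 2 windows above 0, at 0.61 and 0.90, 1 of them higher without overlap, and Acan had no tested window. Muscle and endothelial markers had 9 windows at 4 of 15 genes, namely Cdh5, Erg, Pecam1 and Vwf, of which 8 were above 0 and 5 (55.6%) higher without overlap, against the same 50.4% and 8.6%, with a median of 0.75, or 0.35 without the second TNFa library and 0.44 without the first TNFa+BMP4 library. The summed level of the 9 windows was 680 and 532 with TNFa+BMP4, against 439 and 377 with TNFa, and the defining genes Myod1, Myog, Kdr and Tek had no tested window. Haematopoietic markers had 21 windows at 4 of 18 genes and a median of 0.13 (-0.20 to 0.31 when 1 library was left out), with none for Ptprc, Spi1 or Cd68, and adipocyte markers 6 windows at 3 of 12 genes and a median of -0.11 (-0.36 to 0.042), with none for Pparg or Adipoq. The part of other cell types in these values was not tested. In bulk libraries fewer cells of a type and less open DNA per cell cannot be told apart. Housekeeping genes, as a control, had 49 windows, 5 (10.2%) higher and 4 (8.16%) lower without overlap, near the shares of all windows. Their median was 0.16, but 0.074 without the first TNFa+BMP4 library and -0.125 without the second TNFa library.

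**Figure D4:**
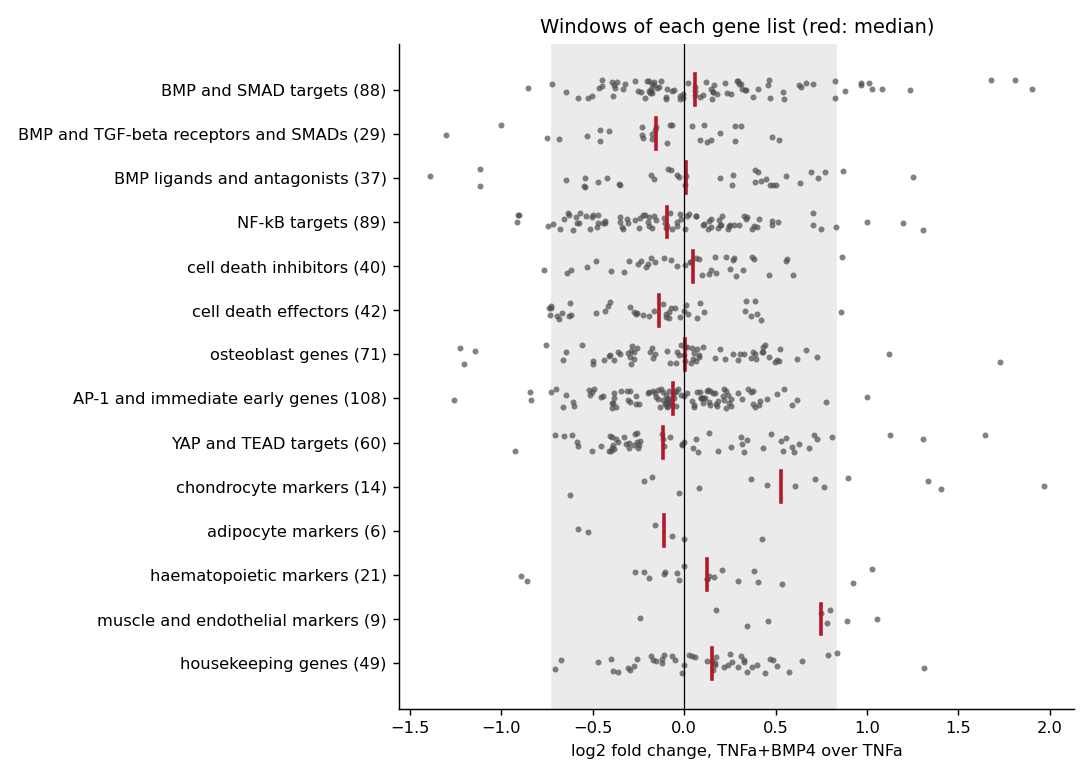
Log2 fold change of TNFa+BMP4 over TNFa (horizontal) for each tested window of the 14 gene lists, with the number of windows in brackets, the list's median in red and the 5th to 95th percentile range of all tested windows shaded (-0.72 to 0.83). Most list medians lie near 0, with chondrocyte markers at 0.53 and muscle and endothelial markers at 0.75, and single BMP target windows extend beyond the shaded range on the right.

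By position, promoter windows had smaller shares without overlap than intergenic and intronic ones. Of 7055 promoter windows, 448 (6.35%) were higher and 464 (6.58%) lower without overlap, whereas of 4989 intergenic windows 538 (10.8%) were higher and 539 (10.8%) lower, and of 5040 intronic windows 495 (9.82%) and 502 (9.96%). The 5th and 95th percentiles of the log2 fold change were -0.67 and 0.72 at promoters, against -0.78 and 0.90 in intergenic windows. Promoter windows were also the more deeply covered, with a median of 38.9 normalised tags, against 27.5 in intergenic windows. Of the 1200 windows in annotated repeat elements, 142 (11.8%) were higher and 109 (9.08%) lower without overlap, against 8.6% and 8.81% of all tested windows. The windows in repeats had a median log2 fold change of 0.08 and a median of 22.7 normalised tags. In none of these classes was a window past the adjusted threshold.

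BMP4 was also given without TNFa, and that contrast, BMP4 over untreated, uses 4 other libraries. Over the windows matched in all 4 lists (14648 tested), it too gave 0 windows at an adjusted p under 0.05 by limma, with 30 (0.205%) at the unadjusted one, 50.7% of windows above 0, and 8.33% higher with BMP4 without overlap. Of the 56 windows higher with TNFa+BMP4 at an unadjusted p under 0.05, 43 could be followed there, and all 43 were above 0, with a median of 1.00. Of the 25 lower ones, 21 could be followed, none was above 0, and the median was -0.97. On a scale common to the 8 libraries, the Id3 promoter held 367 and 288 normalised tags with BMP4, against 96.6 and 167 in untreated cells (log2 fold change 1.34, SE 0.51), beside 283 and 232 with TNFa+BMP4 against 57.0 and 87.5 with TNFa. Snai1 stood at 1.15 (SE 0.53), the Sox6 window at 1.46 (SE 0.65), the A730020M07Rik window at +38782 bp at 1.80 (SE 0.51) and the Id2 window at -2833 bp at 0.79 (SE 0.54). The Fst window was at -1.02 (SE 0.66), and the Zzz3 promoter, at -0.23 (SE 0.74), stood near 0.

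The difference between libraries numbered 1 and 2 ran along with both contrasts. Across 14128 windows, the log2 fold change of TNFa+BMP4 over TNFa had a Pearson correlation of 0.63 with that of BMP4 over untreated. It had one of 0.514 with replicate 1 minus replicate 2 in the BMP4 and untreated libraries, which are not part of that contrast. The fold change of BMP4 over untreated had one of 0.674 with replicate 1 minus replicate 2 in the TNFa+BMP4 and TNFa libraries. The points share libraries within each axis, and the values are given as a description. Of the 43 windows higher with TNFa+BMP4, 35 (81.4%) were more open in replicate 1 of the BMP4 and untreated libraries, with a median difference of 1.2 on the log2 scale. Of the 21 lower ones it was 3 (14.3%), with a median of -0.80, against 49.6% of all windows. The part of this replicate difference in the results was not tested. It did not go with every named window: replicate 1 minus 2 in the BMP4 and untreated libraries was -0.22 at the Id3 promoter, -0.39 at the Snai1 promoter and 0.07 at the Sox6 window, but 1.47 and 1.36 at the upstream Id3 windows at -9068 and -8650 bp and 1.78 at the Sp7 window at -10033 bp. Within the TNFa+BMP4 and TNFa libraries the same difference was -0.16 at the Id3 promoter and 0.25 at Snai1, but 1.21 at the Sox6 window and 1.23 at the Sp7 window.

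**Figure D5:**
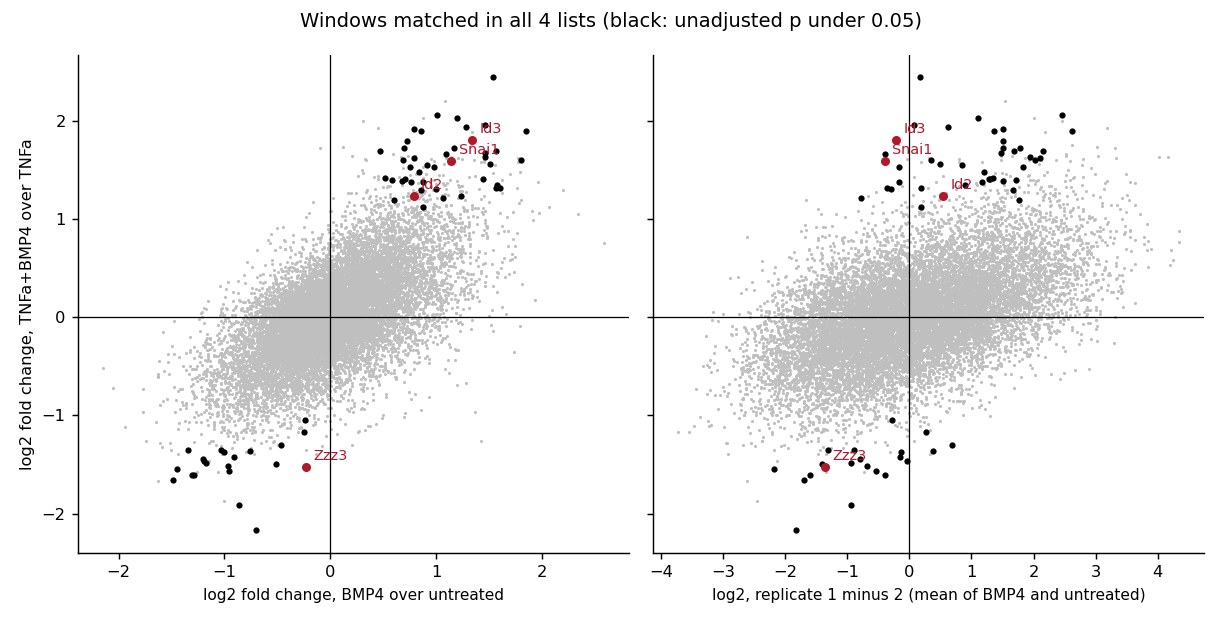
Log2 fold change of TNFa+BMP4 over TNFa (vertical) against that of BMP4 over untreated (left) and against replicate 1 minus 2 in the BMP4 and untreated libraries (right), for 14128 windows matched in all 4 lists, with windows at an unadjusted p under 0.05 in black and 4 promoter or upstream windows named. Black points keep to the upper right and lower left on the left panel, and most do so on the right panel too, where Id3 and Snai1 lie just left of 0.

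Whether the BMP4 difference itself depended on TNFa was tested as an interaction over all 8 libraries. No window passed (0 of 14648 at an adjusted p under 0.05 by limma, percent called 0), and 0 were at an unadjusted p under 0.05. At the Id3 promoter the difference of the effects, with TNFa minus without, was 0.49 with an SE of 0.72, at Snai1 0.47 (SE 0.74), at the Id2 window 0.47 (SE 0.77) and at the Smad6 promoter -0.35 (SE 0.91). The largest among the windows named above was that of the window assigned to 4930435F18Rik, -1.57 with an SE of 1.25. With errors of this size, a difference between the effects was not detectable in these libraries.

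Windows of one list without a partner add names that the paired comparison cannot hold, since a window missing from a list has no tag count in that list's libraries. The TNFa+BMP4 list had 4912 such windows (20.69%) and the TNFa list 4455 (19.13%), and they were low, with medians of 16.5 and 16 tags, against 32.5 and 28.5 in paired windows. Counting only those over 500 bp from any window of the other list, 3079 (12.97%) remained in the TNFa+BMP4 list and 2767 (11.88%) in the TNFa list. Of these, 45.18% of the TNFa+BMP4 ones were also in the BMP4 list and 35.01% in the untreated list, where the whole TNFa+BMP4 list had 75.34% and 76.15%. For the TNFa ones the shares were 43.4% and 64.76%, where the whole TNFa list had 74.81% and 81.68%. The windows with the most tags among the TNFa+BMP4 ones lay in an intron of Shc2 (249 and 120 tags), at the promoters of the actin-nucleating subunit gene Arpc4 (161 and 156) and the cytolinker gene Plec (159 and 114), and near Mir6935 and Ube2v1. Among the TNFa ones they lay at the promoter of the nuclear long noncoding RNA Neat1 (182 and 378 tags), at the transcript end near Junb (220 and 326, and 225 and 250), in Cirbp and at the Actg1 promoter.

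Of the BMP and SMAD target windows, 21 of 123 (17.1%) in the TNFa+BMP4 list were over 500 bp from the TNFa list, and 10 of 107 (9.35%) in the TNFa list were as far from the TNFa+BMP4 list. For all windows the shares were 12.97% and 11.88%. Over the 14 gene lists, the share in the TNFa+BMP4 list ran from 5.26% (housekeeping genes) to 25% (muscle and endothelial markers). In the TNFa list it ran from 6.45% (haematopoietic markers) to 21.7% (chondrocyte markers). The following were chosen after their values were seen. In the TNFa+BMP4 list they included a window at -5024 bp of Id2 (55 and 44 tags), one at -1057 bp of Id1 (13 and 26), one at +651 bp in Smad9, the gene of a BMP-activated SMAD (16 and 17), windows at +46077 and +48632 bp of Atoh8 (34 and 60, and 23 and 40) and one of the BMP antagonist Grem1 (32 and 14). Those of Id2, Id1 and Grem1 were also in the untreated list, as well as in the BMP4 list, whereas the Smad9 window and the Atoh8 window at +46077 bp were in the BMP4 list but not the untreated one, and the other Atoh8 window in neither. In the TNFa list they included the promoter of Bambi, which encodes a decoy receptor (16 and 22 tags), and a window near Hes1 (8 and 72), both also in the BMP4 and untreated lists. Of osteoblast gene windows, 16 of 98 (16.3%) in the TNFa+BMP4 list and 8 of 88 (9.09%) in the TNFa list had no near partner, against 12.97% and 11.88% of all windows. The promoter of Bglap, the osteocalcin gene, was one of the TNFa+BMP4 ones, with 13 and 10 tags. It was also in the BMP4 and untreated lists. The lists were called on pooled libraries, so these counts have no replicate error.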

How the data were processed

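Paired reads of 150 bp were made on a NovaSeq instrument, per the labels' protocols. The submitters' processing notes name mm10, HOMER 4.11, Bowtie2 2.5.1, deepTools 3.5.1, Picard 2.25.1 and Trimmomatic 0.39. Whether reads were shifted for the transposase, the sources used here do not say. Windows were called by the authors, per the file headers, on pooled replicates against both background libraries, at a false discovery rate of 0.05 and a log2 fold of 1; since cells given both factors and cells given TNFa were called separately, windows near that threshold can be missing from a list. The deposited columns per library hold log2 values that the authors made with the rlog transform of DESeq2, list by list, and not the plain counts the headers name. The deposited fold over background guided the start of the tag recovery described below and was a filter in an alternative setting. The deposited p-value and score entered no test.

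Tags were recovered by solving the rlog equation, with 3 fitted constants per list. Within 0.1 of a whole number were 99.997% of values in the TNFa+BMP4 list and 99.99% in the TNFa list, but 14.3% and 14.1% with size factors moved by 5%. In the 6992 pairs with identical starts, 100% of the recovered background counts were equal. Paired windows with at least 10 scaled tags in at least 2 libraries were tested with limma 3.58.1 (R 4.3.3), with a mean-variance trend on log2 of tags scaled by the trimmed mean of M-values plus a pseudocount of 2, two-sided, with Benjamini-Hochberg adjustment; fold changes on this scale understate changes of low windows. Because the deposited unit was log2, no count model was run. The steps were checked on simulated data. A window belongs to the nearest gene in the files. Named by rule were the 10 windows per direction with the smallest p and the most open and promoter windows of 30 core genes. The rule also took 3 windows per direction per list, and 5 unpaired windows per list with the most tags. Other windows, among them further ones of Id1, Id3 and Bmp4, were added outside this rule, and not all of them are marked. Members and lists were chosen with earlier results of these data known, so lists have no test. The scaling, pseudocount, filter, pairing distance, weights, background subtraction, replicate term and libraries were varied.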

Additional observations from a re-analysis of the deposited data

How the results depend on the processing

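No window passed the adjusted threshold under 17 of 18 alternatives; without the first TNFa library, which leaves a lone TNFa library assumed to vary like the others, 27 did, so leaving out 1 library gave 0 to 27. At the head of the 27 was a window in an Immt intron with 273 and 151 normalised tags with TNFa+BMP4, against 175 and 9.14 with TNFa. Scaling by total tags moved the share of higher windows at an unadjusted p under 0.05 to 91.11%, against 69.14%. The numbers 1 and 2 are not said to pair libraries; with 2 pairs, whose deviations from the group means had a correlation of 0.641, a replicate block gave 0 windows past the threshold, a lowest adjusted p of 0.143 and 1579 windows at the unadjusted one, and changed no call; for the interaction it gave 0 and 15. The interaction count was also 0 under the 2 other scalings and without each library in turn; these and the fit on windows with whole recovered tags were chosen after seeing the data. Of 2013 values of 125 named windows, 1980 moved by less than the spread between libraries, 33 by more, and 45 changed sign, 4 of them by more than their SE. The list medians that moved by more than that spread were, for windows with a mean of at least 50 tags, BMP ligands and antagonists at -0.30, YAP and TEAD targets at 0.041, chondrocyte markers at 0.71 and haematopoietic markers at 0.33. With identical starts only, they were cell death inhibitors at -0.085, haematopoietic markers at -0.20 and muscle and endothelial markers at 0.35, and with all 8 libraries in the fit chondrocyte markers at 0.68. Leaving out 1 library gave -0.22 to 0.090 for NF-kB targets, -0.14 to 0.15 for cell death inhibitors, -0.13 to 0.033 for AP-1 genes, 0.23 to 0.65 for chondrocyte markers, -0.20 to 0.31 for haematopoietic markers and 0.35 to 0.71 for muscle and endothelial markers. Pairing only identical starts left 16753 windows of the TNFa+BMP4 list and 16296 of the TNFa list without a partner. The causes of these shifts were not tested. With 24 to 36 tags in the median window of a library, changes in low windows are beyond these data.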
